A study of Mus musculus with 6 samples.

Results

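The insulin-like growth factor (IGF) system was examined through 10 genes in the ventricles of Tbx5ua knockdown (KD) and wildtype (WT) mouse embryos. The genes were chosen by name, as the rows of the deposited gene table whose symbol matched, and all 10 of them were found once each among the 23284 genes listed. Earlier results of these data were known when the genes were chosen. They were the ligand gene Igf1, the receptor genes Igf1r and Insr, the IGF-binding protein genes Igfbp2, Igfbp3, Igfbp4, Igfbp5 and Igfbp7, and the RNA-binding protein genes Igf2bp1 and Igf2bp3. The products of the last pair bind Igf2 mRNA and not the IGF proteins, so the name IGF-binding protein is kept here for the other 5 genes.

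The RNA came from heart ventricles at E9.5 of tetraploid chimeric embryos, 3 of them made from WT and 3 from KD ES cells. The labels give the strain as C57BL/6, and the methods of the study give the ES cells as derived from C57BL/6 J. The body of such a chimera is formed by the ES cells and not by the host embryo. The KD genotype is labelled Tbx5ua -/-, and in it both alleles of this long non-coding RNA gene, which is transcribed away from Tbx5, carry inserted polyadenylation signals at the second exon. The ES cells were picked as single colonies, and the sources used here do not say which KD line gave the embryos that were sequenced. The table held 1 value per gene for each group, made by the authors from the 3 embryos with Cuffdiff, in FPKM, a read density scaled by transcript length and by library size. Values of single embryos were not at hand, so no difference below could be set against the spread between embryos, no test was made, and "higher" and "lower" describe the group values only. The depth behind each value is unknown for the same reason. Tbx5ua was not analysed here, so the group labels were not checked against the targeted gene.

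IGF1 and IGF2 are secreted growth factors that act through the tyrosine kinase IGF1R and, in part, through the insulin receptor. IGF-binding proteins hold the ligands outside the cell, where they can block them, store them in the matrix or carry them, and some of them also act without a ligand. In the embryonic heart, IGF2 is the leading ligand, and it promotes growth of the ventricular wall. Igf2bp1 and Igf2bp3 encode RNA-binding proteins that are made in embryos and largely turned off after birth.

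Igfbp3 was the single gene of the 10 that differed by at least 1.5-fold, and it was higher in KD. Igfbp2, Igfbp5 and Igfbp4 were also higher in KD, by 1.41-fold, 1.30-fold and 1.26-fold on the scale of FPKM + 1, while Igfbp7 and Igf1 were lower and the receptor genes Igf1r and Insr and the gene Igf2bp1 differed by 0.10 or less on the log2 scale. In bulk tissue, a different number of cells of a type and a different amount of RNA per cell cannot be told apart. The background for these counts was 11606 genes that reached 1 FPKM in WT, in KD or in both, of which 425, or 3.66%, differed by at least 1.5-fold in either direction. Of them 255, or 2.20%, were higher and 170, or 1.46%, were lower in KD. Against this, 1 of the 10 genes was past 1.5-fold, a count too small to set the genes apart as a group. Their median log2 difference was 0.08, beside 0.00 for all 11606 genes, and 6 were higher and 4 lower in KD. All 10 genes passed the FPKM minimum in both groups. At a stricter 2-fold, 0 of the 10 genes passed, beside 1.22% of all genes (0.646% higher and 0.577% lower in KD). At a looser log2 threshold of 0.32, 4 of the 10 genes passed, all of them higher in KD and all binding proteins (Igfbp2, Igfbp3, Igfbp4 and Igfbp5), beside 15.2% of all genes (8.80% higher and 6.40% lower). Igfbp4, at 0.33, lay just inside that threshold, and at 0.30 it lay outside it, leaving 3 genes, when each group was scaled to the same sum over all genes.

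Before the values, the DNA just upstream of the genes for the 4 binding proteins that were higher in KD is shown, since these members lay on the same side of WT. A RefSeq promoter entry on build GRCm38.p6 was matched for 8 of the 10 genes; Insr and Igf2bp1 had no entry. The sequences run 5′ to 3′ along the gene's own strand and end at the base before the RefSeq start site. For Igfbp3 the 250 bases at chr11:7213924-7214173 on the minus strand are given. For the other genes 100 bases are given, at chr1:72824380-72824479 on the plus strand for Igfbp2, at chr11:99041144-99041243 on the plus strand for Igfbp4 and at chr1:72874866-72874965 on the minus strand for Igfbp5. Capitals mark matches, on either strand, to 5 motifs that were picked after these sequences had been seen, namely the TATA box TATAAA, the similar run TATATA, the GC box GGGCGG, the T-box half-site AGGTGT and the E-box CACGTG.
Igfbp3: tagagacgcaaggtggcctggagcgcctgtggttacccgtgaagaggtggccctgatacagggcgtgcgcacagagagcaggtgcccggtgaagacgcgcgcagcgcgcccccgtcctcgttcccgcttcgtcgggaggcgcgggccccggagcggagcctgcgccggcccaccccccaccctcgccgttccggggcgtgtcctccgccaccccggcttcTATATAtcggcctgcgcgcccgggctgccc
Igfbp2: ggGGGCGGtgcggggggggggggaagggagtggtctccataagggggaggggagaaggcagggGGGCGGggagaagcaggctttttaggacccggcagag
Igfbp4: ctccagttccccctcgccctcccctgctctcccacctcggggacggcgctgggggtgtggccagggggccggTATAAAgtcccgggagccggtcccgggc
Igfbp5: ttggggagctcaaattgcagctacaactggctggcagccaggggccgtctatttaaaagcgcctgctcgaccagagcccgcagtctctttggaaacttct

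The 4 windows did not share a motif of this set. Igfbp3 held TATATA from 30 to 25 bases before its start, and Igfbp4 held TATAAA from 28 to 23 bases before its start. Igfbp2 held GGGCGG at 3 places in its 250 bases, 2 of them in the stretch shown, and CACGTG further upstream, and Igfbp5 matched none of the 5 motifs. The motifs of Igfbp2 were not particular to genes higher in KD. GGGCGG also occurred upstream of Igf1r and of Igfbp7, and CACGTG upstream of Igf2bp3, and the last 2 genes were lower in KD. Over the 250 bases upstream of 32817 RefSeq start sites, TATATA occurred in 5.25%, TATAAA in 12.4%, GGGCGG in 32.7%, AGGTGT in 11.8% and CACGTG in 6.02%. The GC content of the 250 bases was 73.2% for Igfbp3, 67.2% for Igfbp2, 69.2% for Igfbp4 and 58.8% for Igfbp5. A match of letters is a description of the window and says nothing of binding.

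**Figure D1:**
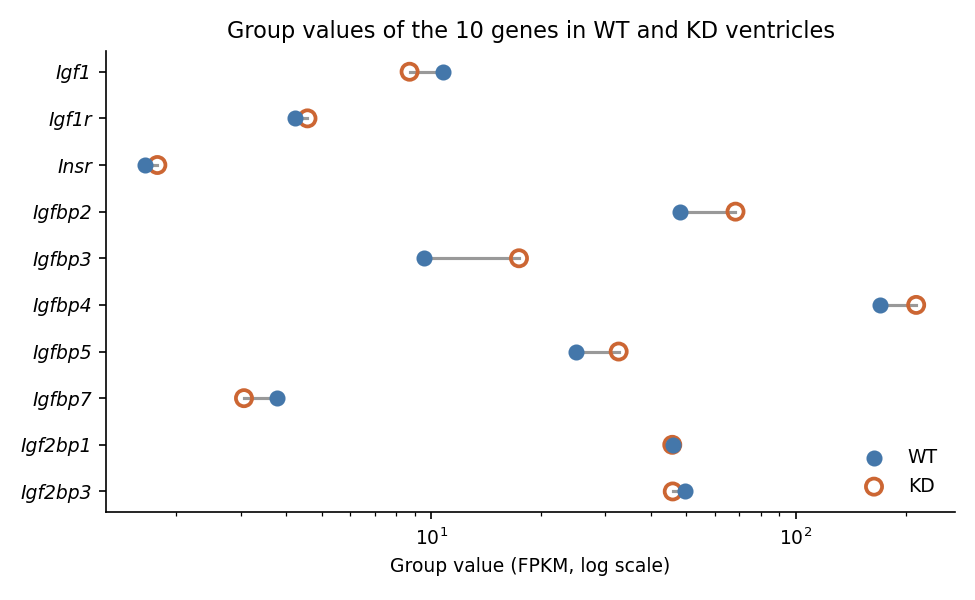
Group values of the 10 genes in FPKM on a logarithmic axis, with filled circles for WT and open circles for KD, 1 value per group with no error available. The open circles of Igfbp2, Igfbp3, Igfbp4 and Igfbp5 lie to the right of the filled ones, those of Igf1 and Igfbp7 lie to the left, and those of Igf2bp1 nearly coincide at 46.2 and 45.8 FPKM.

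Among the binding proteins, Igfbp3 had the largest difference. Its gene (ENSMUSG00000020427.11) lies on chromosome 11 from 7206086 to 7213923, on the minus strand, in the GENCODE M21 annotation of GRCm38, and its product is the main IGF carrier of adult blood. The group value of Igfbp3 was 9.55 FPKM in WT against 17.4 in KD. This is a log2 difference of 0.80 on the scale of FPKM + 1, or 1.74-fold. Of the 11606 genes, 210, or 1.81%, differed by at least as much in either direction. Igfbp3 thereby passed Igf1 in the order of levels, from the seventh of the 10 genes in WT to the sixth in KD.

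Igfbp3 stands tail to tail with Igfbp1, with 3539 bases between them. Igfbp1, whose product is a liver-derived binding protein in adults, was listed at 0 in WT and had 0.0301 FPKM in KD. The neighbour was thus near the bottom of the table in both groups.

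Igfbp2 and Igfbp5 form another such pair on chromosome 1. Igfbp2 (ENSMUSG00000039323.18) runs from 72824503 to 72852474 on the plus strand and Igfbp5 (ENSMUSG00000026185.8) from 72857932 to 72874884 on the minus strand, with 5457 bases between their ends. IGFBP2 is a binding protein of fetal tissues that also attaches to integrins, and IGFBP5 binds the extracellular matrix.

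The group value of Igfbp2 was 48.2 FPKM in WT against 68.3 in KD, a log2 difference of 0.49 on the scale of FPKM + 1. Igfbp5 had 25.0 FPKM in WT against 32.7 in KD, a log2 difference of 0.37. Both genes of the pair were therefore higher in KD, and both stayed short of 1.5-fold. A difference of the size of that of Igfbp2 or larger was found in 5.75% of all genes, and of the size of that of Igfbp5 in 11.2%.

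Igfbp4 (ENSMUSG00000017493.12, chromosome 11 from 99041244 to 99054392, plus strand) was the most abundant of the 10 genes in both groups. Its product restrains IGFs until the protease PAPP-A cuts it, and it can also inhibit Wnt signalling. Igfbp4 had 169.6 FPKM in WT against 213.9 in KD, a log2 difference of 0.33 on the scale of FPKM + 1, which 14.3% of genes matched or exceeded. In absolute terms this was the largest gain in FPKM among the 10 genes, although its fold was below that of Igfbp2, Igfbp3 and Igfbp5.

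Igfbp7 (ENSMUSG00000036256.13, chromosome 5 from 77349240 to 77408041, minus strand) went the other way. Its product binds IGFs weakly and is known from blood vessels. Igfbp7 had 3.77 FPKM in WT against 3.06 in KD, a log2 difference of -0.23 on the scale of FPKM + 1. The table gives it the same locus as Polr2b, an RNA polymerase subunit gene on the opposite strand that overlaps it, with 27.2 FPKM in WT against 25.4 in KD. Smart-Seq2 libraries do not mark the strand, so reads from any exon sequence shared by the genes cannot be assigned to either. Whether their exons overlap was not checked, so how far the value of Igfbp7 is affected is unknown. No annotated GENCODE gene overlaps Igfbp2, Igfbp3, Igfbp4 or Igfbp5.

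FPKM is scaled by length, and on this basis levels are added and compared between genes here. Other differences between genes in library making and read mapping are not removed by this scaling. The 5 binding protein genes together had 256.2 FPKM in WT against 335.3 in KD, a ratio of 1.31. Igfbp4 held 66.2% of this sum in WT and 63.8% in KD, Igfbp2 held 18.8% and 20.4%, and Igfbp5 held 9.75% and 9.74%. Igfbp3 made up 3.73% in WT and 5.19% in KD, while Igfbp7 made up 1.47% and 0.914%. The sum was therefore set mainly by Igfbp4 and Igfbp2, and the gene with the largest fold contributed little to it. The median log2 difference of the 5 genes was 0.37, beside -0.01 for the other 5 genes.

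How far a gene moved has to be read against its level, because the spread of differences over genes depends on it. Among the 4708 genes whose higher group value lay from 10 to below 100 FPKM, the 90th percentile of the absolute log2 difference was 0.33, and 2.42% of them were past 1.5-fold. Igfbp2, Igfbp3 and Igfbp5 belong to this class and lay beyond that percentile. Igf1, Igf2bp1 and Igf2bp3, also of this class, lay within it. For the 1219 genes at 100 FPKM or more the 90th percentile was 0.25 and 3.61% were past 1.5-fold, and Igfbp4 lay beyond that percentile. For the 5679 genes below 10 FPKM the percentile was 0.45 and 4.70% were past 1.5-fold, and Igf1r, Insr and Igfbp7 lay within the percentile. These are comparisons across genes, which are not replicates, and they carry no error from embryo to embryo.

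**Figure D2:**
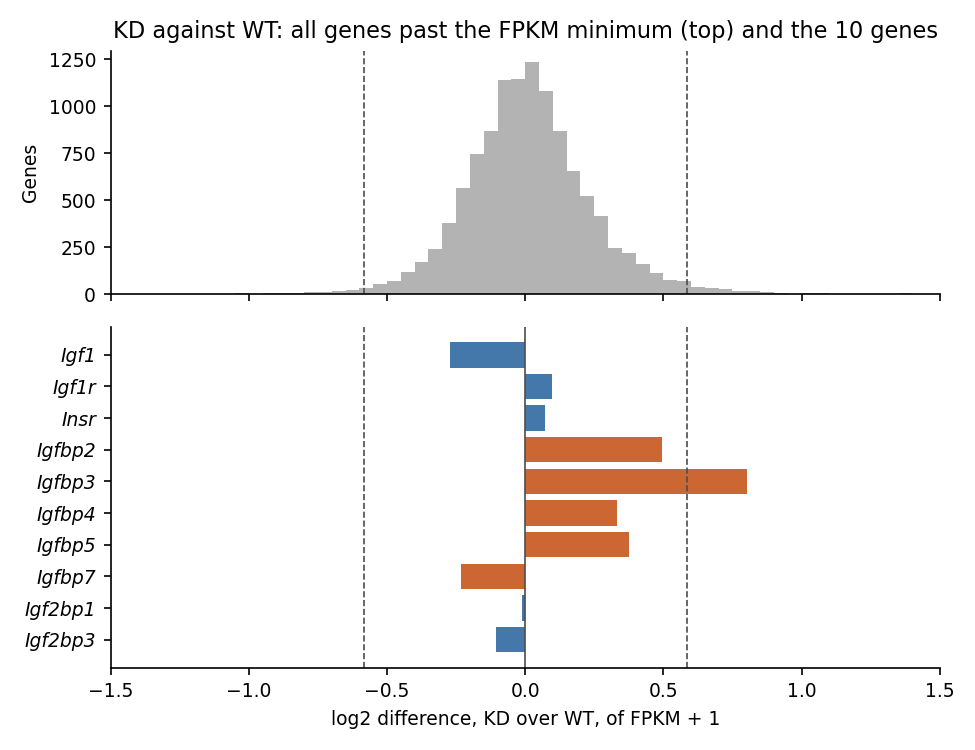
Log2 difference of KD over WT, on the scale of FPKM + 1, for all 11606 genes past the FPKM minimum (histogram, 83 genes beyond the drawn range) and for the 10 genes (bars, orange for IGF-binding proteins and blue for the others). Dashed lines mark 1.5-fold; the bar of Igfbp3, at 0.80, crosses it, and the bar of Igfbp2, at 0.49, is the nearest of the rest.

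The ligand gene among the 10, Igf1 (ENSMUSG00000020053.18, chromosome 10 from 87858265 to 87937042, plus strand), was lower in KD. It had 10.7 FPKM in WT against 8.72 in KD, a log2 difference of -0.27 on the scale of FPKM + 1. This was the furthest that any of the 10 genes lay below WT, yet 20.5% of all genes differed by as much or more. GENCODE places an antisense gene, Igf1os, across this locus, and reads from any exon sequence shared with Igf1 cannot be told apart in unstranded libraries. Whether their exons overlap was not checked. Insr, Igf2bp1 and Igf2bp3 are likewise overlapped by annotated genes on the other strand.

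Igf2, which is no member of the list but is the other ligand gene, was far more abundant. It had 348.0 FPKM in WT against 387.8 in KD, with a log2 difference of 0.16. In FPKM, Igf2 exceeded Igf1 by 32.4 times in WT and 44.5 times in KD. Set against the ligands, the summed binding proteins came to 0.714 of the summed Igf1 and Igf2 values in WT and 0.846 in KD.

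The receptor genes were low and stayed close between the groups. Igf1r (ENSMUSG00000005533.10, chromosome 7 from 67952827 to 68233668, plus strand) had 4.22 FPKM in WT against 4.58 in KD, a log2 difference of 0.10 on the scale of FPKM + 1. Insr (ENSMUSG00000005534.10, chromosome 8 from 3122061 to 3279617, minus strand) had 1.64 FPKM in WT against 1.77 in KD, a log2 difference of 0.07. Differences of at least these sizes were found in 61.8% and 71.2% of all genes. In FPKM, Igf1r stood above Insr by 2.57 times in WT and 2.58 times in KD, and on the scale of FPKM + 1 by 1.98 and 2.01 times. The proportion of the receptor genes was thus nearly the same in both groups, while its size depended on the pseudocount. The deposited locus of Insr starts at 3150922, inside the GENCODE span. Igf2r, whose product takes up IGF2 for degradation and does not signal as a kinase, had 31.0 FPKM in WT against 32.3 in KD, 7.36 and 7.06 times the value of Igf1r.

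The RNA-binding protein genes were abundant and differed little. Igf2bp1 (ENSMUSG00000013415.9, chromosome 11 from 95957163 to 96005940, minus strand) had 46.2 FPKM in WT against 45.8 in KD, a log2 difference of -0.01 on the scale of FPKM + 1, and 95.5% of all genes differed by at least as much. Igf2bp3 (ENSMUSG00000029814.10, chromosome 6 from 49085223 to 49214957, minus strand) had 49.6 FPKM in WT against 46.0 in KD, a log2 difference of -0.11. The remaining gene of this family, Igf2bp2, had 34.3 FPKM in WT against 35.5 in KD. The sum of these 3 genes was 130.1 FPKM in WT against 127.2 in KD. Igf2bp1 shares its locus in the table with Mir3063, a microRNA gene inside it, whose reads cannot be separated from those of its host.

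Ranked by level, Igfbp4 led in both groups and Insr came last. In WT, Igf2bp3, Igfbp2 and Igf2bp1 followed Igfbp4 within a narrow range of 49.6 to 46.2 FPKM. In KD, Igfbp2 stood apart from the Igf2bp genes, at 68.3 against 46.0 and 45.8 FPKM. Whether neighbours in this order differ beyond the spread between embryos could not be measured.

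The rest of the system was read from lists of 15 other family genes and 48 genes that act downstream of the receptors. Of these 63 genes, 62 were found in the table, 52 passed the FPKM minimum, and 0 differed by at least 1.5-fold, beside 3.66% of all genes. There were 29 genes higher and 23 lower in KD, with a median log2 difference of 0.05, and 2 genes passed 1.5-fold with a pseudocount of 0.1 or 0.01, beside 7.58% and 8.10% of all genes at those settings. All 7 family genes past the minimum were higher in KD, by 0.05 to 0.45 on the log2 scale, beside 50.9% of all genes. These were Igf2, Igf2r, Igfbpl1, Igf2bp2, Stc1, Stc2 and Htra1, the last at 0.45. This list leaves out the 10 genes themselves, of which 4 were lower in KD, so it does not describe the whole family. The 7 genes were still higher when each group was scaled to the same sum, by 0.02 or more, beside 45.1% of all genes. Of the 15 family genes, 3 were listed at 0 in both groups, among them the insulin genes Ins1 and Ins2. Igfbp6, a binding protein that prefers IGF2, had 0.0741 FPKM in WT against 0.165 in KD. Igfbpl1, a gene for an IGFBP-like protein, had 10.9 FPKM in WT against 12.2 in KD.

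The 45 signalling genes past the minimum lay between -0.32 and 0.44, with a median of -0.01, 22 of them higher and 23 lower in KD. The highest of them in WT were Rps6, a ribosomal protein gene and S6 kinase target, with 1118 FPKM in WT against 1222 in KD, and Eif4ebp1, a translation repressor controlled by mTOR, with 341.5 FPKM in WT against 362.3 in KD. The signalling genes were thus split evenly between the directions.

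**Figure D3:**
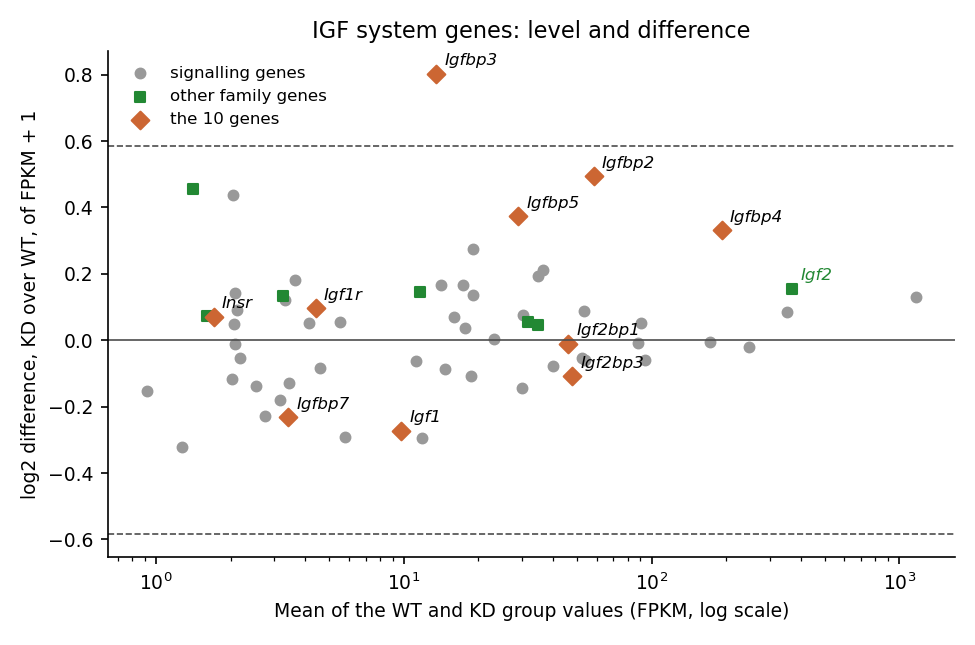
Mean of the group values in FPKM, on a logarithmic axis, against the log2 difference of KD over WT on the scale of FPKM + 1, for the 10 genes (orange diamonds), the other family genes (green squares) and the signalling genes (grey circles) past the FPKM minimum. Igfbp3 is the single point above the upper dashed line of 1.5-fold, and no point lies below the lower line.

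Igf2bp1 and Igf2bp3 belong to a set of genes of the early embryo that the let-7 microRNAs repress, and 12 related genes were listed beside them. Of these, 1 differed by at least 1.5-fold, beside 3.66% of all genes. This was Lin28a, whose product blocks let-7 processing, with 8.71 FPKM in WT against 4.32 in KD, a log2 difference of -0.87. Its relative Lin28b had 5.28 FPKM in WT against 4.62 in KD. The highest of the set in WT were H19, an imprinted RNA gene next to Igf2, with 338 FPKM in WT against 357 in KD, and Hmga1, a chromatin protein gene, with 91.1 and 105.8 FPKM. The Igf2bp genes thus sat with the genes of small difference.

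Some markers of epicardial and mesenchymal cells were higher in KD, the direction of 4 of the 5 binding protein genes. Beside 2.20% of all genes, of 10 epicardial markers 8 passed the FPKM minimum and 6 of these were at least 1.5-fold higher in KD. The sum over all 10 was 52.3 FPKM in WT against 109.0 in KD. The 6 genes were Tcf21, Tbx18, Upk3b, Upk1b, Lrrn4 and Bnc1, and the median log2 difference of the 8 genes was 0.95. The highest of the list in WT were Wt1, with 13.8 FPKM and 19.2 FPKM in KD, and Tcf21, with 11.9 and 25.5 FPKM. Of 14 mesenchymal and neural crest markers, 9 passed and 4 of these, Col1a1, Dcn, Pdgfra and Sox9, were at least 1.5-fold higher. The median of the 9 genes was 0.51, and the sum over all 14 was 50.1 FPKM in WT against 80.0 in KD. Aldh1a2, Bnc1 and Pdgfra reached the minimum only in KD, the group where they were higher. Among genes at 1 FPKM or more in both groups, 5 of 6 epicardial and 3 of 8 mesenchymal markers were at least 1.5-fold higher, beside 1.45% of all genes. None of either list was at 0 in both groups. Endocardial markers had a median of 0.03 and cardiomyocyte markers of -0.03, and 0 of 12 genes in each list were past 1.5-fold. The part of epicardial or mesenchymal cells in the values of Igfbp2, Igfbp3, Igfbp4 and Igfbp5 was not tested.

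Cardiomyocyte markers were high. In WT, Myl2, the ventricular light chain gene, had 10924 FPKM, and Myl7 had 13643 FPKM. Myl7 is expressed along the whole heart tube at this stage, so its level does not tell ventricle from atrium, and purity of the dissection was not tested. Erythroid genes were high as well, with a sum of 11451 FPKM in WT against 11529 in KD and a median log2 difference of 0.11 over 7 genes. Of the 9 macrophage markers listed, 1 passed the FPKM minimum, Lyz2, with a difference of -0.29. Of 10 hepatic and yolk sac markers, 3 passed it, with a median of 0.29, while Alb, Fgb and Hnf4a were listed at 0 in both groups.

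**Figure D4:**
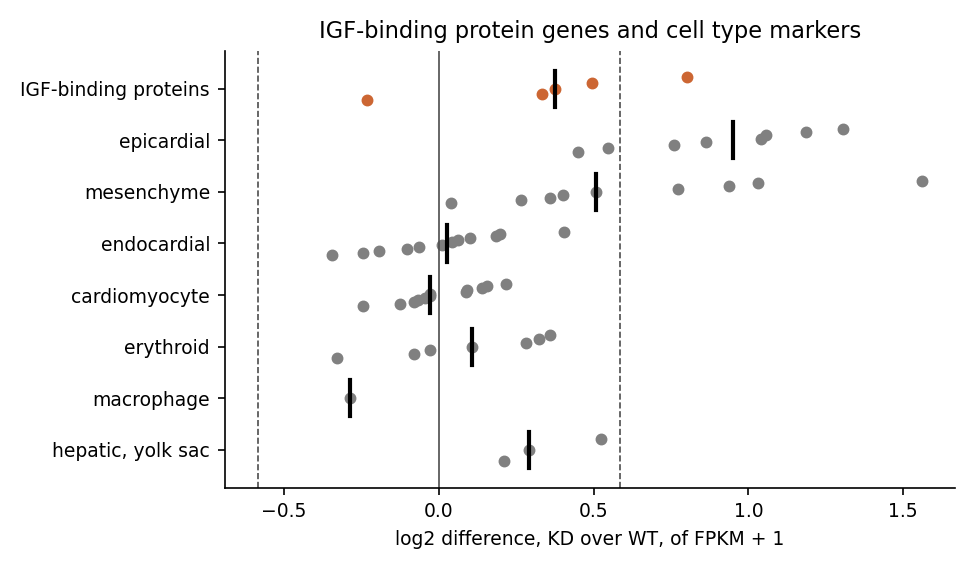
Log2 difference of KD over WT on the scale of FPKM + 1 for the 5 IGF-binding protein genes (orange) and for cell type marker genes past the FPKM minimum (grey), 1 point per gene, with a black bar at each list's median and dashed lines at 1.5-fold. The binding proteins have a median of 0.37, below the epicardial (0.95) and mesenchymal (0.51) medians and above those of the other lists, of which the hepatic and yolk sac one, over 3 genes, is the nearest at 0.29.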

How the data were processed

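RNA-seq libraries of 3 WT and 3 KD ventricles at E9.5 were made with Smart-Seq2 and sequenced single-end. Per the labels, the authors used TopHat, Bowtie2 and Cuffdiff on mm10; versions and the gene annotation are not given in the sources used here. The authors deposited 1 table with the FPKM of each gene in WT and in KD, the latter under the name KO. Its columns of fold changes, test statistics, p-values and q-values hold the authors' own comparison and were not used.

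The value reported is log2((KD + 1)/(WT + 1)), read over genes that reached 1 FPKM in WT, in KD or in both, and 1.5-fold was the threshold. The pseudocount understates the change of low genes. No test was possible with 1 pooled value per group; the depth per sample is unknown and no interval is given. The script was tested on simulated data, with 2-fold changes put on well expressed genes and far less noise than in the real values. That test checks the arithmetic only. The members and gene lists were chosen with earlier results of these data known. All members were named, with those genes of the lists that passed 1.5-fold. The most abundant genes were named for the signalling, let-7, epicardial and cardiomyocyte lists. They were not named for the mesenchymal, endocardial, erythroid and hepatic lists. Igf2, Igf2r, Igfbp1, Igfbp6 and Igf2bp2 were also named, and further genes were named after their values were seen. Positions are from GENCODE M21 and sequences from RefSeq, both on GRCm38. Alternatives were pseudocounts of 0.1 and 0.01, 2 scalings, other filters, leaving out shared loci, and a stricter and a looser fold. Python 3.11.15, NumPy 2.4.6, pandas 2.3.3 and Matplotlib 3.10.9 were used.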

Additional observations from a re-analysis of the deposited data

How the results depend on the processing

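No paired analysis was possible because Cuffdiff had merged the 3 embryos of a group into 1 value, and no replicate could be left out. With no spread to compare with, a log2 value was counted as moved when it changed by 0.1 or more. Igfbp3 lay between 0.78 and 0.87 under the pseudocounts of 0.1 and 0.01 and both scalings, and 0 of the 10 genes changed sign under them. With a 2-fold threshold the count of members past it went from 1 to 0, and with the looser log2 threshold of 0.32 to 4 (Igfbp2, Igfbp3, Igfbp4 and Igfbp5, all higher in KD, where 8.80% of all genes were higher by that much). Scaling each group to the same sum as well, a combination chosen after seeing the data, left 3, without Igfbp4. The median of the members went from 0.08 to 0.33 with a minimum of 5 FPKM in WT or KD, which drops Igf1r, Insr and Igfbp7, and to 0.21 without genes that share a locus, which drops Igfbp7 and Igf2bp1. The count of family and signalling genes went from 0 to 2 with either smaller pseudocount and with the looser threshold; under the latter these were Htra1 and Gsk3a, both under 3 FPKM. For the other lists, with alternatives chosen after seeing the data, the epicardial count of 6 became 5 with at least 1 FPKM in both groups and with the minimum of 5 FPKM, 4 at 2-fold, 7 with either smaller pseudocount and 8 with the looser threshold, and the count of genes related to let-7 went from 1 to 0 at 2-fold. The mesenchymal count of 4 became 3 with at least 1 FPKM in both groups, 2 with the minimum of 5 FPKM and at 2-fold, 5 with either smaller pseudocount and 7 with the looser threshold, and the endocardial count of 0 became 2 of 12 with the looser threshold, beside shares of all genes of 1.22% at 2-fold and 15.2% with the looser threshold. The share of all genes past 1.5-fold was 3.66%, against 7.58% and 8.10% with the pseudocounts of 0.1 and 0.01. It was 2.36% with at least 1 FPKM in both groups and 2.93% with the minimum of 5 FPKM. The unknown depth limits what the low values of Insr and Igfbp7 can show.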

Other observations

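The genes around the 10 genes were read as well, a look-up chosen after the members' values were seen. Within 100 kb of any of them lay 14 other genes past the FPKM minimum, with a median log2 difference of -0.03 on the scale of FPKM + 1, and 1 of them was past 1.5-fold, beside 3.66% of all genes. This was Mir3063, lower in KD, with 533.2 FPKM in WT against 159.9 in KD. The FPKM of so short a gene rests on few positions. Of the genes near Igfbp4, the retinoic acid receptor gene Rara had 10.5 FPKM in WT against 13.5 in KD, the connexin gene Gjd3 had 1.02 FPKM in WT against 1.73 in KD, and the topoisomerase gene Top2a of dividing cells had 73.5 FPKM in WT against 66.6 in KD. No gene past the minimum lay within 100 kb of Igfbp3, Igf1, Igf1r or Insr, and the single such gene near Igfbp2 was Igfbp5.

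Of the family list, 5 genes for proteases of binding proteins or for inhibitors of those proteases were read singly. Pappa, the protease gene for IGFBP4, had 0.843 FPKM in WT against 0.475 in KD, below the minimum in both groups, and Pappa2 was listed at 0 in both. Htra1, a protease gene whose product cuts IGFBP5, had 1.03 FPKM in WT against 1.79 in KD. Stc1 and Stc2, whose products inhibit the pappalysin proteases, had 3.05 and 1.53 FPKM in WT and 3.44 and 1.67 FPKM in KD.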
